A study of Rattus norvegicus with 9 samples.

Results

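Matricellular proteins are secreted into the extracellular matrix and change how cells attach to it and sense it, without being its main fibres. The set described here holds 10 rat genes of this kind and of close relatives among matrix and calcification proteins, out of 40154 gene rows in the deposited values: Mgp, Spp1 (osteopontin), Sparc, Smoc2, Thbs1, Thbs2, Tnc, Postn, Fn1 and Vtn. They were chosen by name, with the measured values of these same libraries in view, so their differences between groups are given as a description without p-values. The same holds for their calls and for the number of alternative settings that kept a call. Both reuse these libraries and are no independent support. All 10 were found, and 7 of them were tested, the other 3 (Thbs2, Tnc and Postn) lying below the level filter of at least 1 RPKM in 3 or more libraries. RPKM is the number of reads per kilobase of gene model per megaread, so levels of genes of different length can be compared on it.

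RNA of whole liver was sequenced from wild type Sprague-Dawley rats, 5 months old per the labels, in 3 groups of 3 libraries. HepLPC livers came from cirrhotic rats that had received HepLPCs, rat liver progenitor-like cells derived from hepatocytes, by injection, and PBS livers from cirrhotic rats that were injected with phosphate-buffered saline. Normal livers came from rats without carbon tetrachloride, the liver toxin used to cause the cirrhosis, and without an injection, so in PBS against normal livers the injury and the injection cannot be told apart. A rise, a fall or a level after the cells names a difference between groups of livers below, not a change followed within a liver. The labels do not say that each library is a separate animal, so the p-values given for other genes measure the spread between these libraries, part of which may be technical. Hepatocyte markers summed to between 85275 and 98684 RPKM in HepLPC, 78343 and 86910 RPKM in PBS and 83629 and 100969 RPKM in normal livers, with 0 of 10 called by limma in any comparison (1 higher at an unadjusted p under 0.05 for PBS against normal and 1 higher for HepLPC against PBS), and the albumin gene Alb made up 63.5% of them.

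In scarring liver, activated stellate cells and portal fibroblasts make most of the fibrous matrix, while the growing bile ductules of the ductular reaction make osteopontin. Fibronectin and vitronectin have another origin, since hepatocytes secrete both into the blood plasma. Matrix Gla protein, the product of Mgp, needs vitamin K for its activation and keeps soft tissue free of mineral.

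Promoter sequences from RefSeq (assembly GRCr8, from 250 bases before to 50 bases after the annotated start) were at hand for 6 of the 10 genes, Postn, Thbs1, Tnc, Sparc, Vtn and Spp1, and 4 of them are printed. Sparc and Spp1 are shown because both rose in the PBS livers, and Thbs1 and Vtn because they had no called difference. Capitals mark GGAATG, the core letters of TEAD sites, or its reverse complement.
Sparc: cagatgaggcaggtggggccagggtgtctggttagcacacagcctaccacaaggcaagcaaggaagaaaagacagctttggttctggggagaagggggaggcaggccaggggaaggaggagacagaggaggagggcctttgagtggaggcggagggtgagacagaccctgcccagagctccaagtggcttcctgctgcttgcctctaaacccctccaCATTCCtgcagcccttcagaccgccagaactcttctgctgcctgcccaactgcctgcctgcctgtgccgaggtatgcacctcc
Thbs1: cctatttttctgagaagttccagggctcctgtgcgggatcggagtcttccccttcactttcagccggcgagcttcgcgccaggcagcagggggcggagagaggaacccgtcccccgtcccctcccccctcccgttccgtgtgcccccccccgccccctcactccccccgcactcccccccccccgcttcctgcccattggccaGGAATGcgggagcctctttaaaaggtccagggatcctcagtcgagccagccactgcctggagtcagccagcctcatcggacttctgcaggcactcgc
Vtn: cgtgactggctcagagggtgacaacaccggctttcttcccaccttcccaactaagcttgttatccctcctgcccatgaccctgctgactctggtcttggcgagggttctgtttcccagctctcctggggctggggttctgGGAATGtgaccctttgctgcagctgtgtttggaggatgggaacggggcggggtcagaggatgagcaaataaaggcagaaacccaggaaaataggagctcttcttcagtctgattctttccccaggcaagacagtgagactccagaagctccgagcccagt
Spp1: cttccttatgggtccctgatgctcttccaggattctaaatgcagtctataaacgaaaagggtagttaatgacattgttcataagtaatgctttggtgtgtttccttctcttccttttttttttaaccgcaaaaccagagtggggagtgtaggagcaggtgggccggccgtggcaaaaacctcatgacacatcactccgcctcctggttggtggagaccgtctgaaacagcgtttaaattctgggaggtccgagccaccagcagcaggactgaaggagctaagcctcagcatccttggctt
These windows lie at chr10:40038767-40039066 (minus strand) for Sparc, chr3:125510000-125510299 (plus strand) for Thbs1, chr10:63892532-63892831 (plus strand) for Vtn and chr14:5619755-5620054 (minus strand) for Spp1. On either strand GGAATG occurred in the windows of Sparc, Thbs1 and Vtn, with its first base as printed 33, 47 and 110 bases before the start. It occurred in 14.2% of all 33469 promoter windows of the same length. Of the other motifs searched on both strands, TGANTCA (AP-1, 7.33% of all windows), ACAAAG (SOX, 18.8%) and CACGTG (E-box, 6.42%) were in none of the 6 windows. CAGACA (SMAD, 21.1%) was in those of Sparc and Tnc, and TGGGAA (RBPJ, 25.7%) in those of Tnc and Vtn, where in Vtn 1 occurrence of it overlaps GGAATG. The windows of Spp1 and Postn held none of the 6 motifs. Such matches describe the letters of these windows only.

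Across the 9 libraries depth ranged from 17.4 to 21.8 M recovered reads. HepLPC replicate 2 and PBS replicate 1 stood apart from the others. In them, longer genes deviated further below the mean of the group across the 11124 tested genes, with a Spearman correlation of -0.528 in HepLPC replicate 2 and -0.564 in PBS replicate 1, against -0.157 to 0.423 in the other libraries. Results that rest on these libraries are therefore also given without both.

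Of the 7 tested genes, Mgp and Spp1 had the largest fold changes in each comparison. Mgp stood at 22.7, 25.7 and 40.8 RPKM in HepLPC livers, 137, 197 and 170 RPKM in PBS livers and 9.95, 7.70 and 7.91 RPKM in normal livers. The 3 groups did not overlap, with every PBS library above every HepLPC library and every HepLPC library above every normal one. Its log2 fold change, on log2(RPKM + 1) as all fold changes here, was 4.14 (SE 0.22) for PBS against normal, -2.49 (SE 0.22) for HepLPC against PBS and 1.65 (SE 0.22) for HepLPC against normal. On the plain RPKM scale the mean was 19.7 times higher in PBS than in normal livers, and 3.49 times higher in HepLPC than in normal livers. Mgp was called (Benjamini-Hochberg adjusted p under 0.05, limma over all tested genes) in all 3 comparisons. Its calls in the comparisons with the PBS livers held under all 18 alternative settings, while the call for HepLPC against normal was lost in 15 of 18. Among all 11124 tested genes its rise in the PBS livers was the 10th largest and its fall after the cells the 14th largest. By level, Mgp lay at percentile 84.7 of tested genes in HepLPC, 96.1 in PBS and 64.7 in normal livers. The values rest on 230 to 372 reads in HepLPC, 1281 to 2126 in PBS and 88 to 104 in normal libraries, and the gene model, at 524 bases, is shorter than all but 2.90% of tested genes.

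Spp1, a secreted phosphoprotein that binds integrins and the receptor CD44, stood at 3.63, 1.08 and 4.21 RPKM in HepLPC livers and 12.5, 69.5 and 22.1 RPKM in PBS livers. In normal livers it was listed at 0 in replicate 1 and stood at 0.580 and 1.18 RPKM in replicates 2 and 3, which were 20 and 40 reads. PBS libraries were all above the others but varied 5.57-fold among themselves, and HepLPC replicate 2 fell within the range of the normal libraries. The log2 fold change was 4.21 (SE 0.58) for PBS against normal and -2.93 (SE 0.58) for HepLPC against PBS, both called, and 1.29 (SE 0.58) for HepLPC against normal, which was not called. The lower level after the cells lost its call in 8 of 18 alternatives, and without HepLPC replicate 2 and PBS replicate 1 the 3 fold changes were 4.74, -3.04 and 1.70, with the same calls. Spp1 moved further through the ranking by level than Mgp, at percentile 35.1 in HepLPC, 85.7 in PBS and 2.68 in normal livers.

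**Figure D1:**
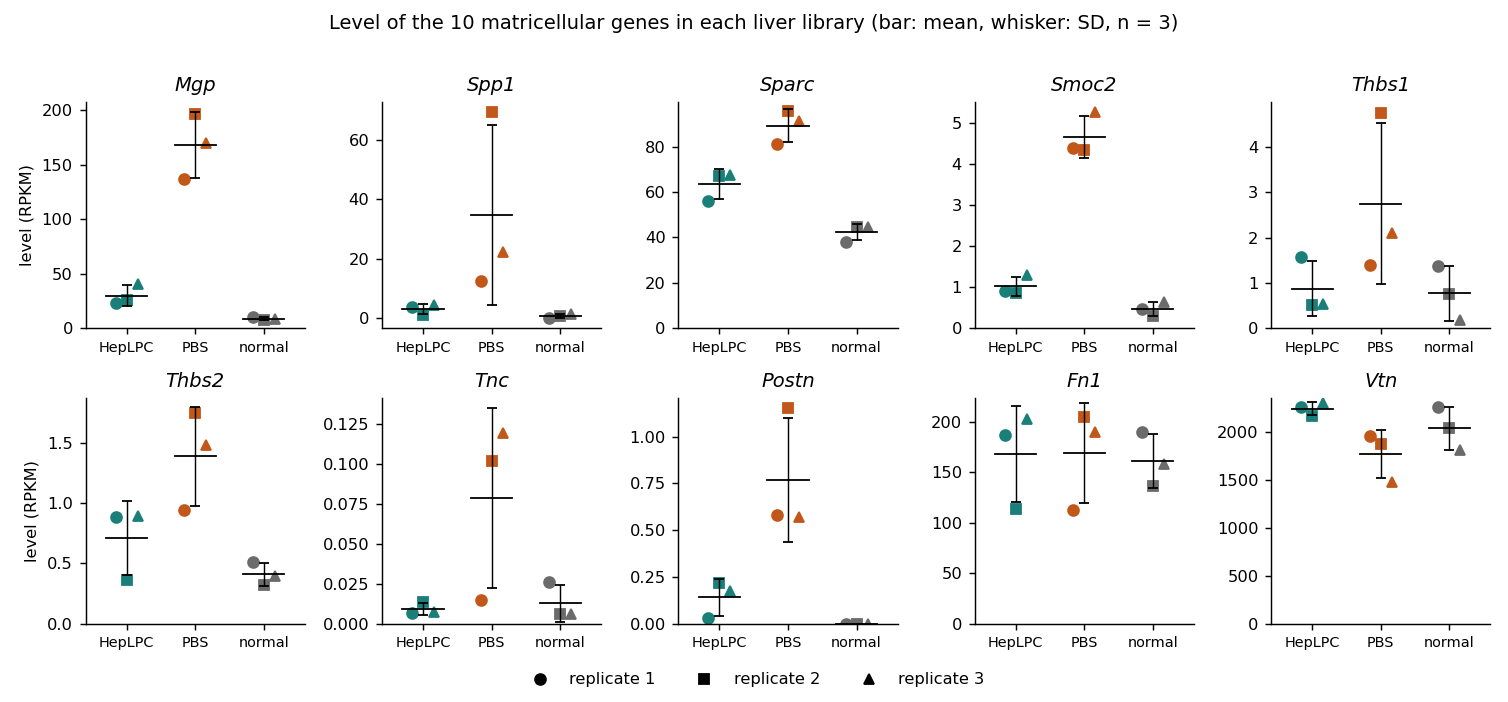
Level in RPKM (vertical axes, each from 0 or just below) of the 10 genes in every library of the HepLPC, PBS and normal groups; points are libraries, the bar is the mean and the whisker the SD (n = 3). Mgp reaches 137 to 197 RPKM in PBS livers and stays below 41 RPKM in the other groups, while Fn1 and Vtn stand at similar heights in all 3 groups.

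Both genes of the set from the SPARC family, Sparc and Smoc2, were higher in PBS than in normal livers. Sparc, a collagen-binding glycoprotein, stood at 56.0, 67.2 and 67.7 RPKM in HepLPC livers, 81.1, 95.6 and 91.1 RPKM in PBS livers and 38.2, 44.4 and 44.4 RPKM in normal livers. The groups did not overlap, and the HepLPC libraries lay between the others. Its rise in the PBS livers was called, at 1.06 (SE 0.13), while the difference of -0.48 (SE 0.13) for HepLPC against PBS and that of 0.58 (SE 0.13) for HepLPC against normal were not. Relative to its mean, Sparc varied least of the 10 genes within the PBS livers, at 89.3 ± 7.43 RPKM (SD, n = 3).

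Smoc2, a calcium-binding relative of Sparc, was far lower in level than Sparc in every library. It stood at 0.909, 0.854 and 1.29 RPKM in HepLPC livers, 4.39, 4.34 and 5.25 RPKM in PBS livers and 0.466, 0.300 and 0.642 RPKM in normal livers. Again the 3 groups did not overlap, and here the HepLPC libraries lay close to the normal ones. The rise in the PBS livers was 1.95 (SE 0.14) and the fall after the cells -1.49 (SE 0.14), both called in all 18 alternatives, while 0.46 (SE 0.14) for HepLPC against normal was not called. Smoc2 passed the filter through the PBS libraries and HepLPC replicate 3, so it could enter the test because it was high in the PBS group.

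The thrombospondins bind calcium and several receptors, and thrombospondin 1, the product of Thbs1, is known as an activator of latent TGF-beta and is stored in platelets. Thbs1 stood at 1.56, 0.516 and 0.526 RPKM in HepLPC livers, 1.38, 4.76 and 2.11 RPKM in PBS livers and 1.38, 0.751 and 0.168 RPKM in normal livers. The lowest PBS library and the highest normal library were nearly equal, with 89 and 99 reads, and the HepLPC and PBS groups overlapped. None of its differences was called: they were 1.04 (SE 0.37) for PBS against normal, -0.95 (SE 0.37) for HepLPC against PBS and 0.10 (SE 0.37) for HepLPC against normal. Without HepLPC replicate 2 and PBS replicate 1 the PBS against normal difference was 1.32 (SE 0.38) and was called, in a fit that called 26% of all tested genes higher. Markers of platelets summed to 16.4 to 21.4 RPKM in HepLPC, 12.9 to 17.0 RPKM in PBS and 10.1 to 34.1 RPKM in normal livers. The normal libraries followed the same order for platelet markers and Thbs1, with replicate 1 highest. In the PBS libraries and in the HepLPC libraries that order was reversed. Pf4 made up 79.9% of that sum, Ppbp, Gp9 and Treml1 were at 0 in at least 1 library, and their part in the Thbs1 values was not tested.

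Thbs2, the relative of Thbs1 that takes part in collagen fibril assembly, stood at 0.885, 0.361 and 0.893 RPKM in HepLPC livers, 0.940, 1.74 and 1.48 RPKM in PBS livers and 0.508, 0.320 and 0.398 RPKM in normal livers. The PBS libraries lay above all others, though PBS replicate 1 only just. In a fit without the level filter, its difference between PBS and normal livers was 0.75 (SE 0.18) and was called, where 6.63% of all genes in that fit were called higher, while those for HepLPC against PBS (-0.48) and HepLPC against normal (0.27) were not.

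Tnc and Postn, known for their induction in wounds and fibrosis, were the lowest of the 10 genes. Tnc, tenascin-C, had 1, 2 and 1 reads in HepLPC livers, 2, 16 and 18 reads in PBS livers and 4, 1 and 1 reads in normal livers, so only PBS replicates 2 and 3 stood out. In those it reached 0.102 and 0.119 RPKM. At this depth no difference between HepLPC and normal livers was detectable for Tnc.

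Postn, periostin, a collagen-binding protein that integrins recognise, had 2, 14 and 10 reads in HepLPC livers and 34, 78 and 37 reads in PBS livers, and was listed at 0 in all 3 normal libraries. Its level was 0.0315, 0.220 and 0.175 RPKM in HepLPC and 0.580, 1.15 and 0.570 RPKM in PBS livers. The groups did not overlap. Against the level that 3 reads over the whole normal group would give, 0.0144 RPKM, the mean was at least 9.84-fold higher in HepLPC livers and at least 53.1-fold higher in PBS livers. In the fit without the filter Postn was called for PBS against normal (0.81, SE 0.12). There HepLPC against PBS (-0.62) and HepLPC against normal (0.19, SE 0.12) were not called. The HepLPC mean rests on few reads, and the 2 reads of replicate 1 lie below a floor of 3 reads.

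Fn1 and Vtn, the genes of the plasma adhesion proteins, had no called difference in any comparison. Fn1, fibronectin, stood at 187, 114 and 203 RPKM in HepLPC livers, 113, 205 and 190 RPKM in PBS livers and 189, 136 and 158 RPKM in normal livers. All 3 groups overlapped, and the lowest value of the HepLPC and of the PBS group was in the library of that group that stood apart by gene length. Fn1 has the longest gene model of the 10, 8338 bases, longer than that of all but 5.22% of tested genes. Its log2 fold change was 0.04 (SE 0.28) for PBS against normal, -0.01 (SE 0.28) for HepLPC against PBS and 0.03 (SE 0.28) for HepLPC against normal, and without those 2 libraries 0.30 (SE 0.15), -0.02 (SE 0.16) and 0.29 (SE 0.15), again not called. Fn1 also codes for a cellular splice form made by matrix-producing cells, and these values per gene do not separate it from the plasma form.

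Vtn, vitronectin, a ligand of integrins and of the plasminogen activator inhibitor, stood at 2262, 2166 and 2307 RPKM in HepLPC livers, 1956, 1873 and 1481 RPKM in PBS livers and 2261, 2039 and 1816 RPKM in normal livers. HepLPC libraries lay above PBS libraries, and the PBS and normal groups overlapped. The differences were -0.21 (SE 0.16) for PBS against normal, 0.35 (SE 0.16) for HepLPC against PBS and 0.14 (SE 0.16) for HepLPC against normal, none of them called. Vtn was in the top percentile of tested genes by level in all groups, at 99.7 in HepLPC, 99.6 in PBS and 99.7 in normal livers.

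**Figure D2:**
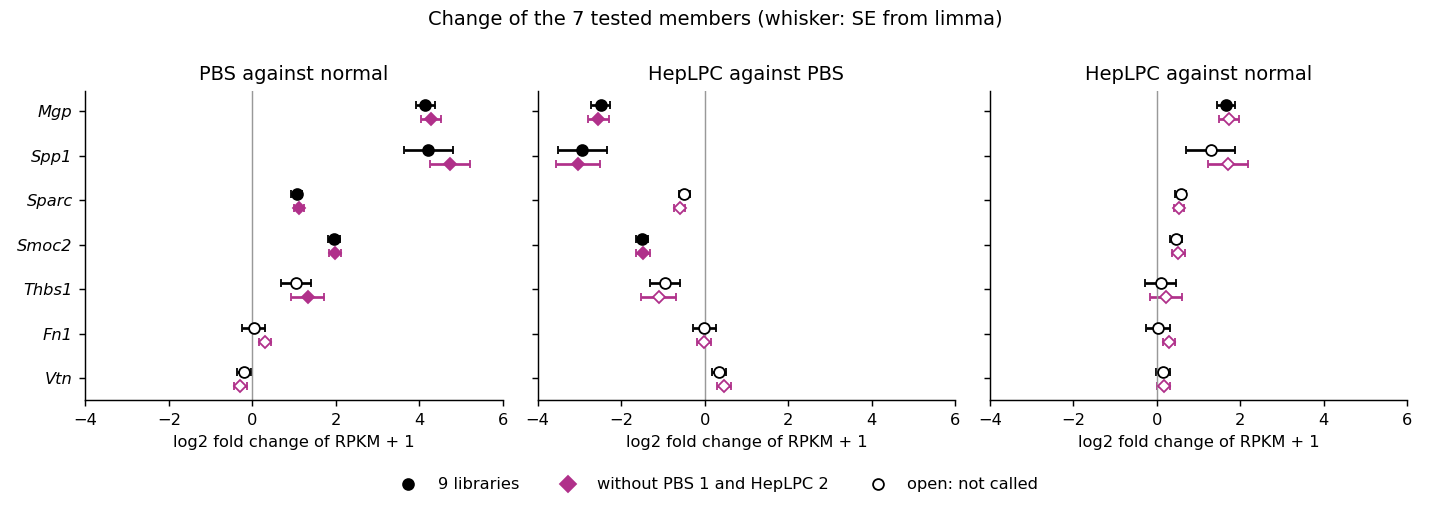
Log2 fold change of RPKM + 1 (horizontal axes) with its SE from limma (n = 3 libraries per group) for the 7 tested genes in the 3 comparisons, with all 9 libraries (circles) and without HepLPC replicate 2 and PBS replicate 1 (diamonds); filled symbols are called. Mgp, Spp1 and Smoc2 lie right of 0 for PBS against normal and left of 0 for HepLPC against PBS, and Thbs1 is called for PBS against normal only without the 2 libraries.

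Set against all tested genes, 4 of the 7 tested genes were called higher and 0 lower in PBS against normal livers (5 and 0 at an unadjusted p under 0.05), where 10.4% of all tested genes were called higher and 0.944% lower. For HepLPC against PBS, 0 were called higher and 3 lower (0 and 5 unadjusted), against 0.135% and 2.93% of all tested genes. For HepLPC against normal, 1 was called higher, Mgp, and 0 lower (3 and 0 unadjusted), against 0.0449% and 0.036%. The median log2 fold change of the 7 was 1.06, -0.95 and 0.46 in these comparisons, beside 0.18, -0.14 and 0.05 for all tested genes. These calls, shares and medians are not evidence about the set, because the same contrasts were known when its genes were chosen. Each pair of comparisons shares a group of libraries, so their values are not independent of each other.

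Per length, the order of the genes was not the same in the 3 groups. Levels of different genes hold only as far as the gene models behind the rows do: Rps6, a ribosomal protein gene, stood at 0.452 to 1.33 RPKM over the 9 libraries, Hprt1, a housekeeping gene, at 0.122 to 0.590 RPKM and Col1a2, the partner chain of Col1a1, at 0 to 0.467 RPKM, for reasons that are not known. The same limit touches the low places of Tnc and Postn. In PBS livers Vtn came first, followed by Fn1 (mean 169 ± 49.3 RPKM) and Mgp (168 ± 29.9 RPKM, SD, n = 3), which did not differ beyond their spread, and then by Sparc and Spp1. In HepLPC livers Mgp, at 29.7 ± 9.68 RPKM, stood below Sparc at 63.6 ± 6.62 RPKM. In normal livers Mgp, at 8.52 ± 1.24 RPKM, stood below Sparc at 42.3 ± 3.61 RPKM, and the means of Thbs1, Spp1, Smoc2 and Thbs2, lay between 0.409 and 0.765 RPKM with overlapping libraries. Leaving out Fn1 and Vtn, the other 8 genes together came to 85.7 to 116 RPKM in HepLPC, 238 to 374 RPKM in PBS and 50.5 to 54.7 RPKM in normal livers. Mgp made up 26.5% to 35.3% of that sum in HepLPC, 52.6% to 58.1% in PBS and 14.2% to 19.7% in normal livers, and Sparc 58.6% to 70.0%, 25.6% to 34.1% and 75.6% to 82.1% in the same groups. Of these 8 genes Mgp held the largest share in every PBS library, and Sparc in every HepLPC and normal library.

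In whole tissue, more cells of a type and more RNA per cell cannot be told apart, so the markers of the cells that could make these proteins are given beside them. Cholangiocyte markers summed to 19.1, 13.5 and 23.0 RPKM in HepLPC livers, 45.4, 126 and 71.9 RPKM in PBS livers and 16.2, 15.9 and 12.8 RPKM in normal livers. Of their 8 tested genes 7 were called higher in PBS against normal and 7 lower in HepLPC against PBS, beside 10.4% and 2.93% of all tested genes. Among these were Cftr, Cldn4, Prom1 and Sox9, which passed the filter through the PBS libraries alone and so had to differ, and Krt7 was at 0 in at least 1 library. The PBS libraries followed the same order for Spp1 and for these markers, as did the HepLPC libraries, while the normal libraries did not. Spp1 per unit of cholangiocyte marker RPKM was 0.0796 to 0.190 in HepLPC, 0.275 to 0.552 in PBS and 0 to 0.0920 in normal livers, so the PBS livers were also apart on this ratio. Mgp on the same ratio was 1.19 to 1.90 in HepLPC, 1.56 to 3.02 in PBS and 0.483 to 0.618 in normal livers, with HepLPC and PBS livers overlapping. Macrophage markers, of another known source of osteopontin, summed to 174 to 252 RPKM in HepLPC, 242 to 338 RPKM in PBS and 150 to 210 RPKM in normal livers. Their order differed from that of Spp1 in every group. In PBS livers they stood at 338, 255 and 242 RPKM, highest where Spp1 was lowest. Spp1 per unit of these markers was 0.00492 to 0.0209 in HepLPC, 0.0369 to 0.273 in PBS and 0 to 0.00583 in normal livers. Of the 10 macrophage markers 2, Gpnmb and Trem2, were called higher in PBS against normal and lower in HepLPC against PBS. Over all tested genes these shares were 10.4% and 2.93%. Trem2 passed the filter through the PBS libraries alone, at 1.45 to 2.81 RPKM there and 0 to 0.371 RPKM elsewhere.

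Myofibroblast markers summed to 46.7, 56.0 and 54.0 RPKM in HepLPC livers, 83.5, 131 and 104 RPKM in PBS livers and 21.5, 21.1 and 24.1 RPKM in normal livers. Of the 8 tested, 7 were called higher in PBS against normal and 3 lower in HepLPC against PBS, beside 10.4% and 2.93% of all tested genes. Among them was Loxl1, which passed the filter through the PBS libraries alone. Col1a1 and Lum reached 1 RPKM only in the PBS libraries and HepLPC replicate 3, so they too could enter the test because they were high there. Col3a1 made up 61.7% of the sum, and Col1a2 was at 0 in at least 1 library. Mgp per unit of these markers was 0.460 to 0.755 in HepLPC, 1.50 to 1.64 in PBS and 0.329 to 0.464 in normal livers, whereas Sparc ran the other way, at 1.20 to 1.25 in HepLPC, 0.728 to 0.971 in PBS and 1.78 to 2.11 in normal livers. By these ratios, which were not tested, the level of Mgp differed more between PBS and normal livers than the summed markers did, and the level of Sparc less. Endothelial markers summed to 84.1 to 97.1 RPKM in HepLPC, 93.8 to 115 RPKM in PBS and 82.5 to 98.1 RPKM in normal livers, with 1 of 10 called higher in PBS against normal. That count is near the share of all tested genes, 10.4%. Sparc per unit of endothelial marker RPKM was 0.594 to 0.805 in HepLPC, 0.813 to 0.865 in PBS and 0.389 to 0.538 in normal livers. No marker of the 10 lists was called by limma between HepLPC and normal livers. Over all tested genes 0.0449% were called higher there and 0.036% lower. At an unadjusted p under 0.05, 5 of the 8 tested myofibroblast markers were higher in HepLPC than in normal livers. The part of any of these cells in the levels of the matricellular genes was not tested.

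Mesothelial markers summed to 81.6 to 122 RPKM in HepLPC, 207 to 228 RPKM in PBS and 90.2 to 95.7 RPKM in normal livers. Krt8, which hepatocytes and ducts also make, was 92.2% of that sum, and the defining Msln, Upk3b, Upk1b and Muc16 were at 0 in at least 1 library. Portal fibroblast markers summed to 183 to 245 RPKM in HepLPC, 168 to 219 RPKM in PBS and 226 to 275 RPKM in normal livers, of which Dpt was 97.5%, and smooth muscle markers to 15.0 to 22.3, 19.0 to 33.7 and 16.8 to 18.7 RPKM in the same groups. The portal fibroblast sum hides its other genes. Eln, elastin, stood at 2.09, 1.32 and 2.32 RPKM in HepLPC, 2.97, 4.16 and 6.97 RPKM in PBS and 0.573, 0.958 and 0.571 RPKM in normal livers, a rise of 1.69 (SE 0.25) in PBS livers that was called and a difference of -0.92 (SE 0.25) for HepLPC against PBS that was not. Clec3b, Fbln2 and Thy1 were too low to be tested, and each was higher in every PBS library than in any other, as was Pi16 by a narrow margin. Cd34 and Entpd2, also too low, overlapped between PBS and HepLPC livers, and Gli1 and Mfap4 were at 0 in at least 1 library. Dpt went the other way, at -0.47 (SE 0.17) for PBS against normal, which was not called. Of 9 tested stellate cell markers 2 were called higher in PBS against normal, beside 10.4% of all tested genes. In HepLPC against PBS 1 was called lower, beside 2.93%, and counts this small are no result about the list. Cygb, cytoglobin, a globin of stellate cells, was called in both, at 2.94, 3.23 and 3.62 RPKM in HepLPC, 9.14, 10.4 and 11.9 RPKM in PBS and 2.23, 2.30 and 1.90 RPKM in normal livers, while Lrat and Pdgfrb were called in neither. The part of these cells in the levels of Mgp and Sparc was not tested.

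**Figure D3:**
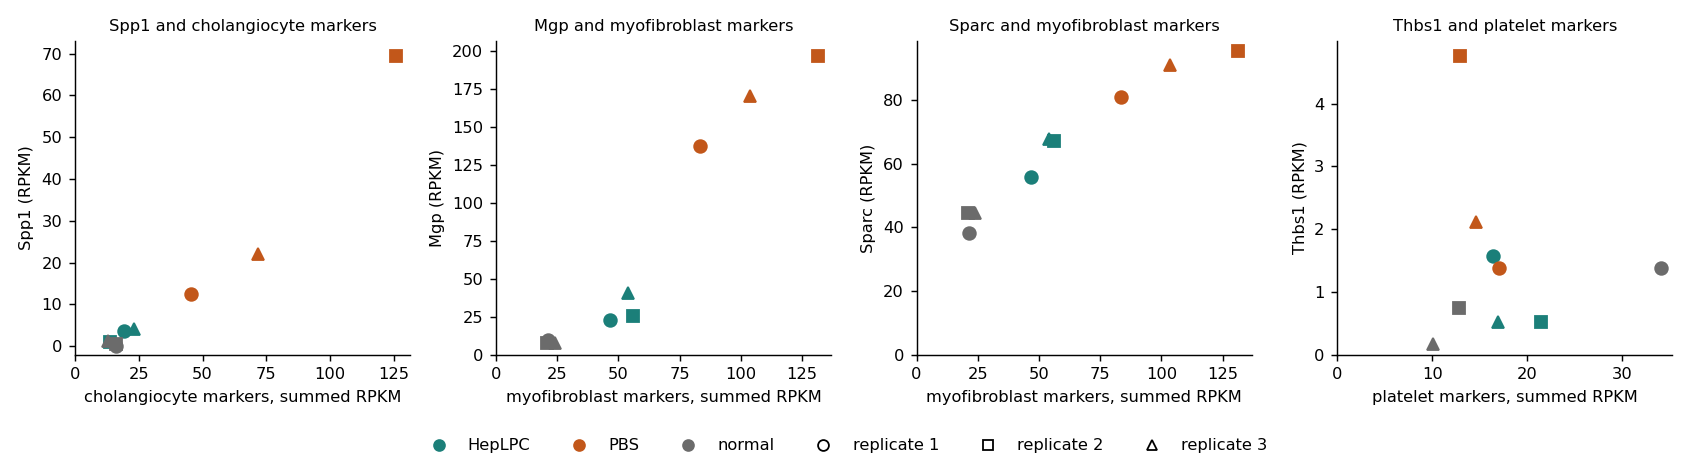
Level of Spp1, Mgp, Sparc and Thbs1 (vertical axes, RPKM) against the summed RPKM of marker genes of a cell type (horizontal axes) in the 9 libraries, coloured by group and shaped by replicate. Spp1 and Mgp are high where the cholangiocyte and myofibroblast markers are high, with the 3 PBS libraries to the upper right, and Thbs1 shows no such order with platelet markers.

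Beside the set, 5 lists of its wider pathway were read, 112 genes that are not in the set, 79 of them tested. These lists were chosen with earlier results of these data known. Their counts, medians and p-values are therefore a description and no independent support for the set. In PBS against normal livers 20 of the 79 were called higher and 0 lower (31 and 1 unadjusted), in HepLPC against PBS 0 higher and 12 lower (1 and 25 unadjusted), and in HepLPC against normal 0 in either direction (12 and 1 unadjusted). Beside these counts stand 10.4% of all tested genes called higher in PBS against normal livers and 2.93% called lower in HepLPC against PBS, and a list near those shares is not a result about its genes. The calls after the cells rest on the settings: leaving out HepLPC replicate 1 or PBS replicate 3 left 1 call, and rescaling by the median of ratios left 3.

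Other matricellular genes had the most calls of the 5 lists. Of 14 tested, 9 were called higher and 0 lower in PBS against normal livers, with a list median of 1.30, and 0 higher and 6 lower in HepLPC against PBS, with a median of -0.65. Lgals3, galectin 3, a sugar-binding protein of macrophages and ducts, averaged 43.0 ± 5.32 RPKM in PBS and 7.03 ± 2.64 RPKM in normal livers (2.50, SE 0.26, limma adjusted p = 0.000582). After the cells it averaged 17.2 ± 5.32 RPKM (-1.30, SE 0.26, limma adjusted p = 0.0301, lost in 11 of 18 alternatives). Ctgf, the connective tissue growth factor of the CCN family and a target of TEAD factors, averaged 12.0 ± 3.97 RPKM in PBS and 1.96 ± 0.619 RPKM in normal livers (2.10, limma adjusted p = 0.00484). In HepLPC livers it averaged 3.20 ± 2.10 RPKM (-1.69 against PBS, limma adjusted p = 0.0339, lost in 12 of 18). Lgals1, galectin 1, and Pcolce, an enhancer of collagen processing, rose by 1.88 and 1.62 in PBS livers, and Lgals1 fell by 1.12 after the cells, a call lost in 14 of 18. Wisp2, another CCN gene, averaged 0.260 ± 0.0766 RPKM in HepLPC and 1.62 ± 0.845 RPKM in PBS livers. It passed the filter through the PBS libraries alone, so its calls are no support. The list median for HepLPC against normal was 0.40 with 0 called (6 higher and 0 lower unadjusted). Of its most abundant genes there, Igfbp7 averaged 68.7 ± 13.4 RPKM in HepLPC and 42.7 ± 4.39 RPKM in normal livers, and Lgals9 75.7 ± 10.7 and 75.6 ± 9.51 RPKM in the same groups.

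Of 16 tested genes of the osteopontin family and of mineralization, 2 were called higher and 0 lower in PBS against normal livers, with a median of 0.16 beside 0.18 for all tested genes, and 1 lower in HepLPC against PBS. The share called higher, 2 of 16, is near the 10.4% of all tested genes. Anxa5, annexin A5, which binds membrane phosphatidylserine, averaged 42.6 ± 10.6 RPKM in PBS and 6.78 ± 1.57 RPKM in normal livers (2.48, SE 0.20, limma adjusted p = 0.000258). In HepLPC livers it averaged 12.8 ± 1.85 RPKM (-1.64 against PBS, SE 0.20, limma adjusted p = 0.00492), and both calls held in all 18 alternatives. The phosphate importer Slc20a1 rose by 0.83 in PBS livers (limma adjusted p = 0.045), a call lost in 10 of 18. Ahsg, the circulating calcification inhibitor fetuin-A, averaged 5671 ± 584 RPKM in HepLPC and 5273 ± 469 RPKM in normal livers (limma adjusted p = 0.892), and Nt5e, the ectonucleotidase CD73, differed there by -0.11 (limma adjusted p = 0.876).

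Mgp is activated by the vitamin K cycle, and of 18 tested genes of that cycle and of other Gla proteins 1 was called in PBS against normal livers and the same gene in HepLPC against PBS. This was Gas6, the ligand of the TAM receptors, at 45.2 ± 13.1 RPKM in PBS and 20.1 ± 2.29 RPKM in normal livers (1.10, SE 0.20, limma adjusted p = 0.00898). In HepLPC livers Gas6 averaged 19.0 ± 3.00 RPKM (-1.18 against PBS, SE 0.20, limma adjusted p = 0.0181, lost in 5 of 18). The carboxylase Ggcx differed by 0.12 between PBS and normal livers (limma adjusted p = 0.696) and the reductase Vkorc1 by -0.12 (limma adjusted p = 0.635), both named for their role in activating Mgp after their values were seen. The clotting factors F2 and F9 differed by -0.03 and -0.24 between HepLPC and normal livers, not called.

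Among receptors of these proteins, 4 of 14 tested were called higher in PBS against normal livers and 1 lower in HepLPC against PBS. Cd44, a receptor of osteopontin, averaged 0.729 ± 0.202 RPKM in HepLPC, 5.08 ± 3.73 RPKM in PBS and 0.360 ± 0.0340 RPKM in normal livers. It passed the filter through the PBS libraries alone, so it had to differ and its calls are no support. Cd36, a receptor of thrombospondin 1, rose by 2.09 in PBS livers (limma adjusted p = 0.021, lost in 3 of 18), and the integrin chains Itgb1 and Itga9 by 0.82 and 0.56, each lost in 8 of 18. In HepLPC against normal livers the proteoglycans Sdc1 and Sdc4 differed by -0.21 and 0.29, not called.

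Partners of vitronectin and fibronectin had 4 of 17 tested genes called higher in PBS against normal livers and 3 lower in HepLPC against PBS. Col1a1, a chain of type I collagen, rose by 2.61 in PBS livers (limma adjusted p = 0.00113) and fell by 1.88 after the cells (limma adjusted p = 0.016, lost in 3 of 18). Col3a1, of type III collagen, rose by 2.20 and fell by 0.92, the fall being lost in 15 of 18, and Ltbp1, which anchors latent TGF-beta to fibronectin, rose by 1.41 and fell by 0.88, the fall being lost in 14 of 18. Fbn1, fibrillin 1, rose by 0.96 in PBS livers, a call lost in 13 of 18. Col1a1 and Fbn1 reached 1 RPKM only in the PBS libraries and HepLPC replicate 3. Both could thus enter the test because they were high in the PBS group. Plg, plasminogen, and C9, a complement protein that vitronectin binds, differed by -0.05 and -0.03 between HepLPC and normal livers, not called.

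**Figure D4:**
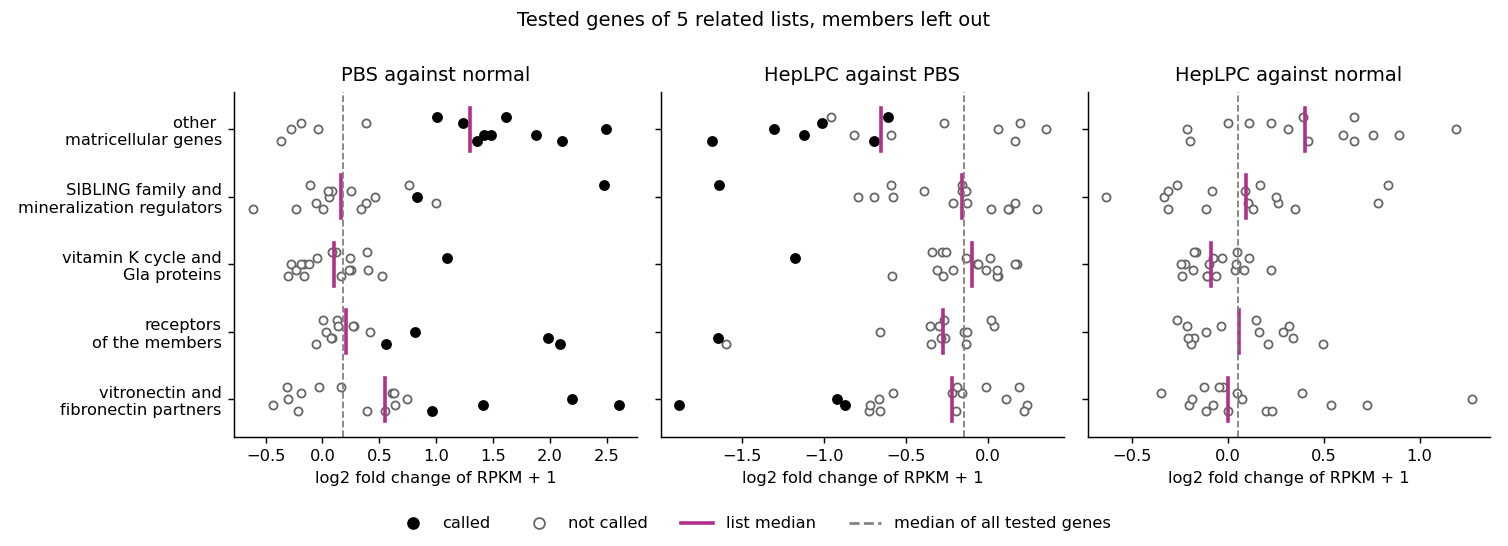
Log2 fold change of RPKM + 1 (horizontal axes) of the tested genes of the 5 related lists in the 3 comparisons; filled points are called, the purple bar is the list median and the dashed line the median of all tested genes. The other matricellular genes reach a median of 1.30 for PBS against normal, the largest of the 5 lists, and no point is filled for HepLPC against normal.

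By the mean absolute difference of centred log2(RPKM + 1) over the 9 libraries, the 5 tested genes with profiles most like that of Mgp were Gpx2 (0.296), C7 (0.356), Cyp2c24 (0.375), LOC100361492 (0.387) and Ccl21 (0.426), where the median of all tested genes was 1.45. For Spp1 they were Lcn2 (0.446), Krt19 (0.507), Cd24 (0.512), C7 (0.513) and LOC102556129 (0.520), against a median of 1.52, and Krt19 and Cd24 are also on the cholangiocyte marker list. Mgp and Spp1 lay 0.589 from each other on this measure. C7, a complement protein, was among the 5 for both genes, at 7.41 ± 2.75 RPKM in HepLPC, 27.8 ± 7.25 RPKM in PBS and 1.61 ± 0.177 RPKM in normal livers.

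The libraries that stood apart by gene length did not treat the 10 genes alike. In log2(RPKM + 1), Spp1 deviated from its group mean by -0.83 in HepLPC replicate 2 and -1.06 in PBS replicate 1, and Fn1 by -0.51 and -0.53. Thbs1 deviated by -0.26 and -0.55 and Thbs2 by -0.32 and -0.29 in the same libraries. Mgp, the shortest, deviated by -0.16 and -0.28, and Vtn by -0.05 and 0.15. Spp1 has a gene model of 1583 bases, close to the lower quartile of tested genes (1575 bases), and deviated most on this scale. The scale flattens genes far below 1 RPKM. Tnc deviated by 0.01 and -0.09, though its 0.0147 RPKM in PBS replicate 1 stood against 0.102 and 0.119 RPKM in PBS replicates 2 and 3. The duct markers were lowest of their groups in these libraries too, at 13.5 RPKM in HepLPC replicate 2 and 45.4 RPKM in PBS replicate 1, and neither length nor markers were tested as a source of these deviations.

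**Figure D5:**
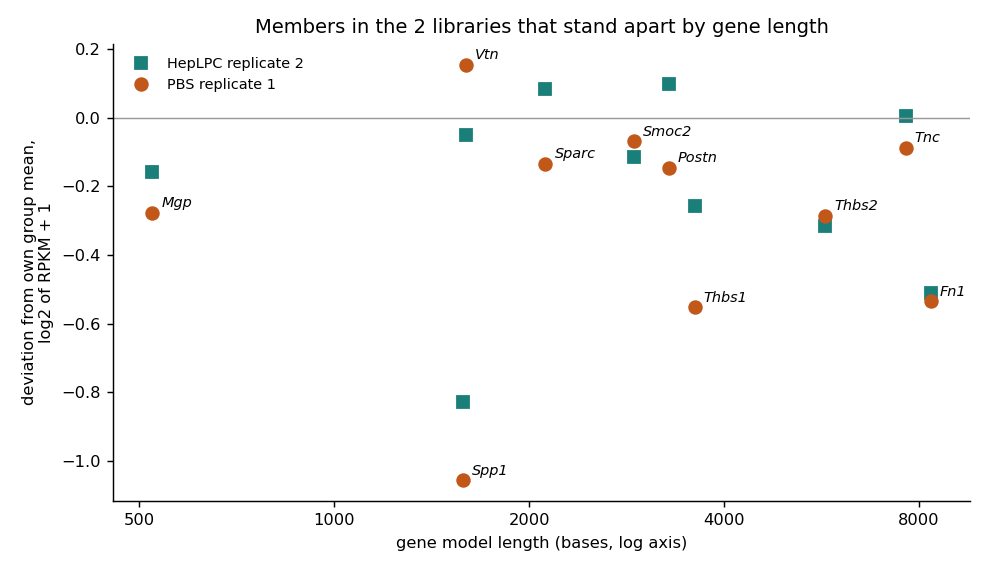
Deviation of the 10 genes from their own group mean on log2(RPKM + 1) (vertical axis) in HepLPC replicate 2 (squares) and PBS replicate 1 (circles) against gene model length in bases (horizontal log axis). Spp1, at 1583 bases, has the lowest values (-0.83 and -1.06), below the long Fn1 (-0.51 and -0.53).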

How the data were processed

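RNA-seq of whole rat liver gave 1 file per library for 9 libraries. Per the file headers, the values the authors deposited are RPKM, in 40154 gene rows, while HISAT2, StringTie and hg19, a human build, are named in the submitters' processing notes, although the rows carry rat symbols. The build behind the values is therefore uncertain, and how reads shared between genes were handled is not stated in the labels. Whole reads were recovered from the RPKM steps, within 0.01 read, for 20959 of 20959 genes above 0 in 3 or more libraries, and served to give depth, gene model lengths and floors of 3 reads, which cover counting error only. Because the values are RPKM, limma 3.58.1 (R 4.3.3, eBayes with a mean-variance trend, 2-sided) was run on log2(RPKM + 1), with a pseudocount of 1. A gene was tested if 3 or more libraries held 1 RPKM of it, which left 11124 genes. The model had 1 term for each group over all 9 libraries (6 residual degrees of freedom), and the threshold for a call was 0.05 after Benjamini-Hochberg adjustment over the tested genes. Fold changes on this scale understate changes of low genes. The scripts were tested on simulated data.

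The genes of the set and all lists were chosen with earlier results of these data known. The 5 related lists held 114 entries, 2 of them unmatched, and 10 lists held cell type markers, of which the summed level of the stellate cell list is not reported here. From each related list, up to 4 called genes with the largest fold change per comparison are named or, where none was called, the 2 with the highest mean. A further 2 genes, Ggcx and Vkorc1, fall outside that rule. Each comparison was refitted under 18 alternatives: pseudocount, filter, scaling, replicate block, groups in the fit, variance prior, each library left out, and HepLPC replicate 2 and PBS replicate 1 left out together. Promoter sequences are from RefSeq (GRCr8), which may not be the build of the values. Groups and replicate numbers come from the labels.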

Additional observations from a re-analysis of the deposited data

How the results depend on the processing

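No fold change of the genes of the set or of the named related genes changed sign while called. Among the refits of single genes, 844 kept their side of the threshold, 163 lost a call and 1 gained it, Thbs1 for PBS against normal livers without HepLPC replicate 2 and PBS replicate 1. The number of genes of the set called for HepLPC against normal, 1 as reported, was 0 without the filter, with a mean of at least 0.1 RPKM, with quantile normalization, with the replicate block, with only the 2 groups in the fit, without the trend, and without HepLPC replicate 2 and PBS replicate 1, and 0 to 1 when each library was left out. For PBS against normal it was 4 in every leave-one-out fit, 6 without the filter and with a mean of at least 0.1 RPKM, and 5 without those 2 libraries. For HepLPC against PBS, 3 as reported, it was 4 with a mean of at least 0.1 RPKM, 2 with a pseudocount of 0.1, without the filter or with only the 2 groups, and 2 to 3 when each library was left out. Between same-numbered libraries, correlations of deviations lay between -0.412 and 0.310, with 5 of 18 best matches on the own number. The 2 libraries that stood apart by gene length carry different numbers, so this check cannot tell whether the numbers pair the libraries. With the replicate block the counts for the set were 4 for PBS against normal, 2 for HepLPC against PBS and 0 for HepLPC against normal.

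For the related lists, leaving out each library gave 13 to 24 calls for PBS against normal (20 as reported, 13 without PBS replicate 3) and 0 for HepLPC against normal. Under the other settings the PBS against normal count ran from 16, with quantile normalization or the replicate block, to 30, without both HepLPC replicate 2 and PBS replicate 1. For HepLPC against PBS, 12 as reported, the count was 6 with a pseudocount of 0.1, 3 after the median of ratios, 4 with quantile normalization, 5 with the replicate block, 1 with only the 2 groups and 1 to 11 when each library was left out. With a mean of at least 0.1 RPKM it was 17, and without the filter 8. Without the trend it was 11, as it was without both HepLPC replicate 2 and PBS replicate 1. It was 4 without any 1 of the normal replicates, 1 without HepLPC replicate 1 or PBS replicate 3, and 6 without HepLPC replicate 2, HepLPC replicate 3 or PBS replicate 2. The cause was not tested. The median of all genes was -0.04 for PBS against normal after the median of ratios, in place of 0.18 as deposited, and 0.04 for HepLPC against PBS, in place of -0.14, while the calls of Mgp, Spp1, Sparc and Smoc2 for PBS against normal held. Depth limits Tnc and Postn, with at most 18 and 78 reads in any library.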
